A study of Mus musculus with 6 samples.

Results

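The semaphorins, plexins and neuropilins were described in sorted cells of the mouse embryonic spinal cord. They are the ligands, receptors and ligand-binding coreceptors of 1 axon guidance system. Members were all probes whose gene symbol began with Sema3 to Sema7 or with Plxn (Plxdc genes left out), or was Nrp1 or Nrp2. This gave 31 of 19897 named genes, through 39 of 55681 non-control probes: 24 probes of 20 semaphorin genes, 12 probes of 9 plexin genes and 3 probes of 2 neuropilin genes. All 31 genes, through 38 probes, passed the filter of a signal well above background on at least 2 of 6 arrays, and 32 probes were above background on all 6. The probe that did not pass was the dimmer of the 2 for Plxna4, above background on 1 KO MN array alone.

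The series compared spinal cord cells of E12.5 mouse embryos that were homozygous for loss of the microRNA cluster mir-17~92 or wild type for it. Every embryo, wild type included, carried the Hb9::GFP reporter, in which the Hb9 (Mnx1) promoter drives green fluorescent protein in motor neurons. GFP-on cells were taken as motor neurons (MN) and GFP-off cells as non-motor neurons (nonMN) by flow sorting. The GFP-off fraction is thus a mix of other cell types of the dissected cord. Some markers of other cell types were nevertheless higher in the GFP-on fraction, as given below. The groups were KO MN (2 arrays), WT MN (2 arrays), KO nonMN (1 array) and WT nonMN (1 array), with KO and WT standing for the genotype labels. Whether an array held cells of 1 embryo or of several is not stated, so a p-value covers only the spread between these arrays, which may be technical.

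Semaphorins are secreted or membrane-bound proteins that mostly repel growing axons, and class 3 members are the secreted ones. Secreted class 3 semaphorins bind a neuropilin, which holds the ligand, together with a class A plexin, which carries the signal into the cell through small GTPases. Membrane-bound classes 4 to 7 mostly bind plexins directly. In the developing cord, Sema3a acting through Nrp1 holds back and bundles motor axons at the limb base, Sema3f acting through Nrp2 steers a subset of limb motor axons, and Sema3e acting through Plxnd1 helps to set which motor neurons receive direct sensory input.

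The cluster that the study removed encodes several microRNAs, and their mature sequences are shown because the seed, the stretch that pairs with target transcripts, defines which transcripts each could reach. Bases 2 to 8 are in capitals, and the sequences and the build GRCm38.p6 are RefSeq's.
mmu-miR-17-5p: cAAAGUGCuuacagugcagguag
mmu-miR-20a-5p: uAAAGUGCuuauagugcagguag
mmu-miR-18a-5p: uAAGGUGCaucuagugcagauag
mmu-miR-19a-3p: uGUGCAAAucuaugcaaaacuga
mmu-miR-19b-3p: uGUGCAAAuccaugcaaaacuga
mmu-miR-92a-3p: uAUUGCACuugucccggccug
All 6 lie on the plus strand of chromosome 14, between positions 115043684 and 115044496. miR-17-5p and miR-20a-5p share the seed AAAGUGC, miR-19a-3p and miR-19b-3p share GUGCAAA, and miR-18a-5p (AAGGUGC) and miR-92a-3p (AUUGCAC) have seeds of their own. No target site in a member transcript was searched for here.

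Promoter windows are shown for the 3 members that were above background on every array but those of WT MN (Nrp1, Plxnb1 and Sema4f) and for the member that passed the test in both comparisons (Plxnb3). Each holds 250 bases before to 50 bases after the RefSeq gene start in GRCm38.p6, read along the gene. Capitals mark matches, on either strand, to the GC box GGGCGG, the CCAAT box CCAAT, the E-box CAGCTG, the TATA box TATAAA or the homeodomain core TAATTA. None of these motifs contains another.
Nrp1 promoter, chr8:128358823-128359122, plus strand: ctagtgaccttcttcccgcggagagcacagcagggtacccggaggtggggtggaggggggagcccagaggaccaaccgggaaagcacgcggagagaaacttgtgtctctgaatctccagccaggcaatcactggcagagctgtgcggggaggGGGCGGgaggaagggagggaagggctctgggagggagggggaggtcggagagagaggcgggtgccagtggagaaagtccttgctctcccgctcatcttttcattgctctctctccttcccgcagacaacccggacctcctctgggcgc
Plxnb1 promoter, chr9:109095186-109095485, plus strand: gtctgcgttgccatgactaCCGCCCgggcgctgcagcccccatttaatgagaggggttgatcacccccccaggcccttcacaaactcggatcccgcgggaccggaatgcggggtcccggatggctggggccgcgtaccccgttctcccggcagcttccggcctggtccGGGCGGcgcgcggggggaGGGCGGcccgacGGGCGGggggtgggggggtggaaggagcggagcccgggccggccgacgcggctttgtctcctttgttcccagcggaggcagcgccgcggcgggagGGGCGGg
Sema4f promoter, chr6:82939720-82940019, minus strand: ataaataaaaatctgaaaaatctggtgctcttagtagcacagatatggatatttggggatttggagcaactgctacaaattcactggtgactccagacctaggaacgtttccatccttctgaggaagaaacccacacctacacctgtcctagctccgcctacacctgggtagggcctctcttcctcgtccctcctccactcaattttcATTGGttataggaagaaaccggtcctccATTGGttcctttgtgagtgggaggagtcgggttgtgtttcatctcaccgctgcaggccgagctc
Plxnb3 promoter, chrX:73756853-73757152, plus strand: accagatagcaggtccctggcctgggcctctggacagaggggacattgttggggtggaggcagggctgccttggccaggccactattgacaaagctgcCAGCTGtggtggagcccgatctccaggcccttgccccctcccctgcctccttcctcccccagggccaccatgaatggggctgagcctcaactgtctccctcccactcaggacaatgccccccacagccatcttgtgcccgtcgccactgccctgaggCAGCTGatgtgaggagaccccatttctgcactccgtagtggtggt
The Plxnb1 window held 5 GC boxes and 36 CpG dinucleotides, the Nrp1 window 1 GC box and 14 CpG, the Sema4f window 2 CCAAT boxes and 7 CpG, and the Plxnb3 window 2 E-boxes and 4 CpG. The median over 32851 windows was 7 CpG. A GC box stood in 27 of the 37 windows (73%) found for 26 member genes, against 35.7% of all windows. A CCAAT box stood in 18.9% of member windows and 37.4% of all windows, and an E-box in 16.2% and 16.3%. The 37 member windows held no TATA box and no homeodomain core, motifs found in 13.6% and 5.29% of all windows. These matches describe the letters only. Some member genes gave more than 1 window, and no background limited to the named genes of the array is given. The gaps between these shares are therefore not read as a trait of the family.

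Levels are given throughout as log2 signal relative to the 75th percentile of the same array, so that 0 is the level of a probe at that percentile. Probes differ in how strongly they bind, so the levels of different probes are not compared. Before scaling, that percentile was 59.9 and 506 on the KO MN arrays, 48.5 and 64.5 on the WT MN arrays, 550 in KO nonMN and 341 in WT nonMN. Between 41.0% and 62.3% of spots were well above background. The WT MN arrays stood apart: over the 19075 probes above background on all arrays, WT MN replicate 2 correlated with arrays of the other groups at 0.736 to 0.806 and replicate 1 at 0.844 to 0.903, while those other arrays correlated among themselves at 0.930 to 0.984. The KO MN arrays lay in row 1 of the slide and the other 4 arrays in row 2, so genotype label and row cannot be told apart in motor neurons. Of 8 measured motor neuron markers, Chat, Lhx3, Lhx4 and Slc18a3 were higher in MN than in nonMN, and Mnx1 had no matched probe. Isl1, Isl2, Prph and Slc5a7 did not pass there, and each had a probe called higher in KO MN than in WT MN. Within the WT label, Isl1 was 0.05 and 0.12 in WT MN against 0.09 in WT nonMN, and Prph 0.11 and -0.99 against -0.55. Isl2 was higher in WT MN (1.30 and 0.03 against -0.32). Of 2 Slc5a7 probes, 1 was below background on both WT MN arrays. The other was -1.47 and -2.94 in WT MN against -4.39 in WT nonMN, with WT MN replicate 2 and WT nonMN below background. For Mir17hg, host transcript of the cluster, the log2 level was 4.55 and 4.78 in KO MN, -2.38 (below background) and 2.73 in WT MN, 4.62 in KO nonMN and -1.23 in WT nonMN. It was thus high on all 3 KO-labelled arrays, which goes against the labels if the deletion covers its probe. Where the probe lies relative to the deletion was not known, and outside it the probe would check nothing. Genotypes are therefore given as labelled, and so are the directions of all differences between them.

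The comparison of KO MN with WT MN asks which guidance transcripts differ between motor neurons of the 2 genotype labels. Of the 38 member probes, 5 were higher in KO MN (Nrp1, Plxnb1, Sema4f, Plxnb3 and the brighter probe of Plxnc1) and 1 was lower (Plxna1), while 32 did not pass (limma, Benjamini-Hochberg adjustment over 33264 probes, threshold 0.05). Calls were common in this comparison: 24.8% of all probes passed, 10.6% higher and 14.2% lower, against 15.8% of member probes, 13.2% higher and 2.63% lower. All members have a gene name, and 13662 of the tested probes have none here. Of the 19602 named probes, 14.6% were higher and 7.44% lower. With 1 probe per gene, 15.8% of 14918 genes were higher and 7.24% lower, against 5 (16.1%) and 1 (3.23%) of the 31 member genes, so the members' share of higher calls was near the background. Of all probes called, 42.7% were higher, and 80.1% and 67.7% with quantile normalization and with normexp background correction, which moved the median difference of all probes to 0.05 and -0.45. None of the 6 calls was kept with normexp, with no filter on dim probes or in an additive model over all 6 arrays (limma, with 3, 8 and 10 member probes at an unadjusted p under 0.05). Receptors accounted for 4 of the 5 higher calls and for the lower one, out of 14 receptor probes, and semaphorins for 1 call out of 24 probes. Receptors were not tested against semaphorins, and the called receptor Plxnc1 has a second probe with a difference of opposite sign (-1.69). The median log2 difference of the members was 0.32, with 22 of 38 above 0, against a median of -0.20 and 44.9% above 0 over all probes, and 0.28 and 58.1% over named probes. With 1 probe per gene the medians were 0.34 for the members and 0.34 for all genes, so the members' median was close to that of named genes in general. Both KO MN arrays lay above both WT MN arrays for 15 of 38 members (29.8% of all and 39.8% of named probes) and below both for 8 (39.7% and 27.9%). In bulk RNA, fewer cells of a type and less RNA per cell cannot be told apart. Markers of another cell type moved with the genotype label as well. Of 9 microglia and macrophage genes, 6 were higher in KO MN, and their summed log2 level was 4.81 and 4.85 in KO MN, 3.61 and 4.02 in WT MN, 4.82 in KO nonMN and 4.07 in WT nonMN, with 5 of their 12 probes below background on both WT MN arrays. The summed log2 level of 6 endothelial genes, 2 of them higher in KO MN by the same test, was 3.17 and 4.03 in KO MN, 4.12 and 6.85 in WT MN, 4.17 in KO nonMN and 4.74 in WT nonMN. The part of these cells in the member differences was not tested.

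**Figure D1:**
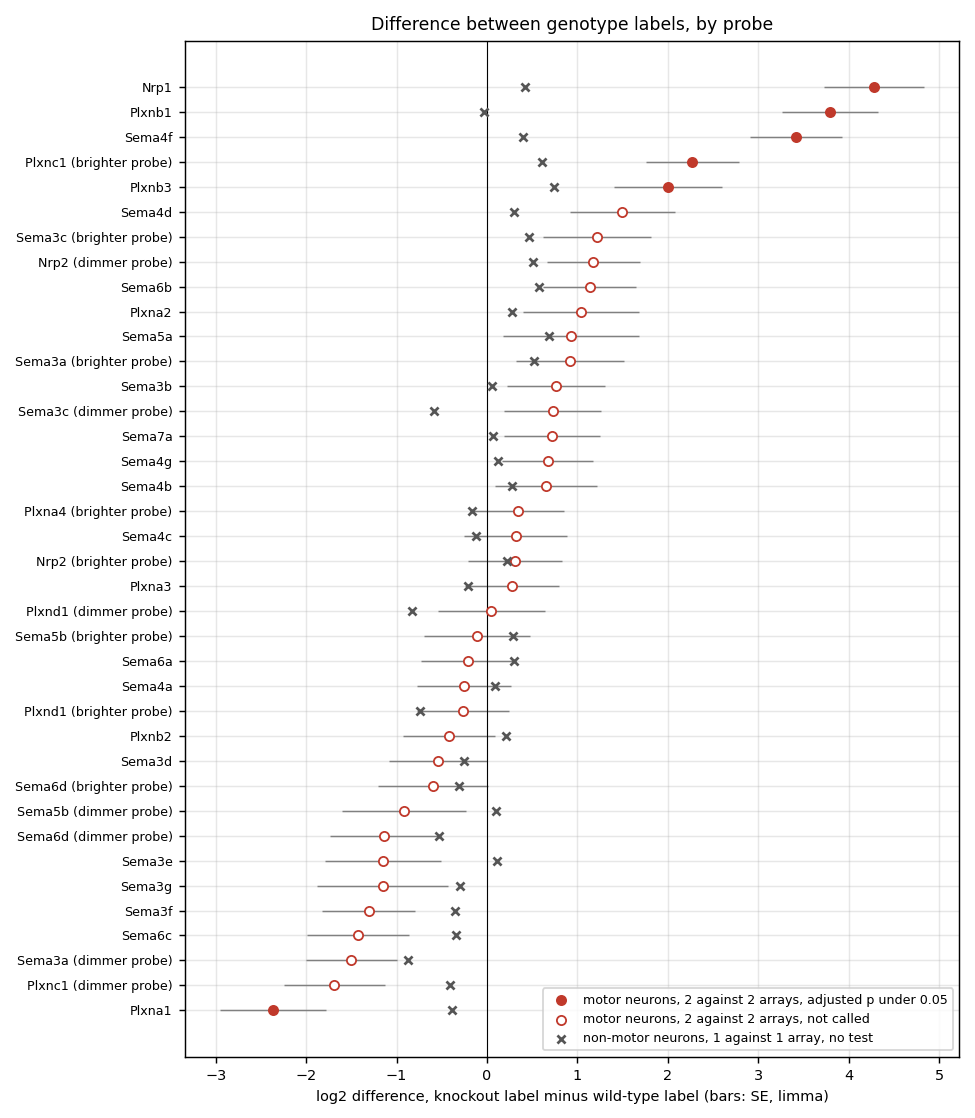
Log2 difference between KO and WT labels for each of the 38 tested member probes, in motor neurons as circles with SE (2 against 2 arrays, filled where the adjusted p was under 0.05) and in non-motor neurons as crosses (1 against 1 array, no test). The 5 filled circles on the right run from 2.0 (Plxnb3) to 4.28 (Nrp1), the filled circle on the left is Plxna1 at -2.36, and the crosses stay between -0.87 and 0.75.

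Nrp1, the neuropilin that holds Sema3a and also a coreceptor for vascular endothelial growth factor, had log2 levels of 0.15 and 0.46 in KO MN, -3.51 and -4.45 in WT MN, -0.03 in KO nonMN and -0.45 in WT nonMN. Its signal was near 0 on 4 arrays and below background on both WT MN arrays, with no overlap between the MN groups. It was at least 5.68-fold higher in KO MN than in WT MN (mean log2 level 0.30 in KO MN and -3.98 in WT MN, measured difference 4.28 ± 0.55, SE, n = 2 against 2, adjusted p = 0.00772). That bound holds for the processed signal: with normexp, which corrects the background by a fitted model and adds an offset to every signal, the log2 difference was 1.11 and did not pass (adjusted p = 0.254). Nrp2, the Sema3f-binding neuropilin, was read by 2 probes. The brighter one had 4.60 and 5.07 in KO MN, 4.65 and 4.39 in WT MN, 4.58 in KO nonMN and 4.35 in WT nonMN, and the dimmer one had 2.94 and 2.75 in KO MN, 1.88 and 1.47 in WT MN, 2.27 in KO nonMN and 1.76 in WT nonMN. On the brighter probe the MN groups overlapped (0.31 ± 0.52, adjusted p = 0.679). On the dimmer one both KO MN arrays lay above the other 4, and the difference of 1.18 ± 0.52 did not pass (adjusted p = 0.117).

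The class A plexins are the signalling partners of neuropilins. Plxna1, which also binds class 6 semaphorins, had log2 levels of 0.41 and -0.51 in KO MN, 1.87 and 2.76 in WT MN, 0.43 in KO nonMN and 0.82 in WT nonMN. Both WT MN arrays were the highest of the 6, and both nonMN arrays lay between the MN groups. The difference was -2.36 ± 0.58 (adjusted p = 0.0238), and without KO MN replicate 2 or WT MN replicate 2 it was -1.91 or -1.92 and did not pass (adjusted p = 0.192 or 0.0793). Plxna2, a receptor for Sema6a, had 2.61 and 3.34 in KO MN, 2.69 and 1.17 in WT MN, 3.34 in KO nonMN and 3.06 in WT nonMN, with WT MN replicate 2 lowest and WT MN replicate 1 within the range of KO MN. Plxna3, a partner of Nrp2 in Sema3f signalling, had 2.87 and 3.24 in KO MN, 3.0 and 2.55 in WT MN, 2.25 in KO nonMN and 2.46 in WT nonMN, and its MN groups overlapped. Plxna4, which serves both Nrp1 with Sema3a and class 6 semaphorins, had 3.22 and 3.42 in KO MN, 2.95 and 3.01 in WT MN, 1.69 in KO nonMN and 1.86 in WT nonMN on its brighter probe. All 4 MN arrays lay above both nonMN arrays, and the KO MN arrays were both slightly above the WT MN arrays. The genotype differences of these 3 genes were 1.04 ± 0.64, 0.28 ± 0.52 and 0.34 ± 0.51, and none passed.

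The class B plexins bind class 4 and class 5 semaphorins. Plxnb1, the receptor of Sema4d, had log2 levels of -0.03 and 0.15 in KO MN, -4.08 and -3.38 in WT MN, -0.69 in KO nonMN and -0.66 in WT nonMN. As for Nrp1, only the WT MN arrays were below background. It was at least 4.81-fold higher in KO MN (mean log2 level 0.06 in KO MN and -3.73 in WT MN, measured difference 3.80 ± 0.53, adjusted p = 0.00850). With normexp the log2 difference was 0.89, below that bound, and did not pass (adjusted p = 0.319). Plxnb2, the receptor of Sema4c, had 5.24 and 5.28 in KO MN, 5.79 and 5.56 in WT MN, 5.38 in KO nonMN and 5.17 in WT nonMN. The 6 arrays lay within 1 log2 unit, and both WT MN arrays were the highest (-0.42 ± 0.51, adjusted p = 0.565). Plxnb3, a receptor of Sema5a, had 1.32 and -0.05 in KO MN, -1.32 and -1.40 in WT MN, -3.13 in KO nonMN and -3.87 in WT nonMN. KO MN lay above WT MN without overlap, and all 4 MN arrays lay above both nonMN arrays. The genotype difference was 2.0 ± 0.60 (adjusted p = 0.0400), with KO MN replicate 1 well above KO MN replicate 2. The call was lost without any 1 of the 4 MN arrays (adjusted p = 0.0514 to 0.318), and without KO MN replicate 1 the difference was 1.31. With normexp it was 0.88 (adjusted p = 0.324).

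Plxnc1, the receptor of Sema7a, was read by 2 probes, which gave differences of opposite sign. The brighter probe had log2 levels of 1.23 and 1.46 in KO MN, -0.80 and -1.05 in WT MN, 0.81 in KO nonMN and 0.20 in WT nonMN, with WT MN lowest and no overlap between the MN groups. The dimmer probe had -1.24 and -1.79 in KO MN, -0.26 and 0.61 in WT MN, -1.98 in KO nonMN and -1.57 in WT nonMN, with WT MN highest and again no overlap. The brighter probe was called higher in KO MN (2.27 ± 0.51, adjusted p = 0.0189), and not without KO MN replicate 1 or 2 (2.39 with adjusted p = 0.0514, and 2.15 with adjusted p = 0.133), nor with normexp (1.28, adjusted p = 0.221). The dimmer probe gave -1.69 ± 0.56 and did not pass (adjusted p = 0.0534). The direction for the gene as a whole is therefore unsettled. Plxnd1, the receptor of Sema3e and also a plexin of blood vessels, had 3.69 and 3.55 in KO MN, 3.97 and 3.80 in WT MN, 2.50 in KO nonMN and 3.24 in WT nonMN on its brighter probe and -0.77 and -0.95 in KO MN, -1.57 and -0.25 in WT MN, -1.56 in KO nonMN and -0.72 in WT nonMN on its dimmer probe. Both WT MN arrays lay just above both KO MN arrays on the brighter probe, and the groups overlapped on the dimmer one, with differences of -0.26 ± 0.51 and 0.05 ± 0.59.

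**Figure D2:**
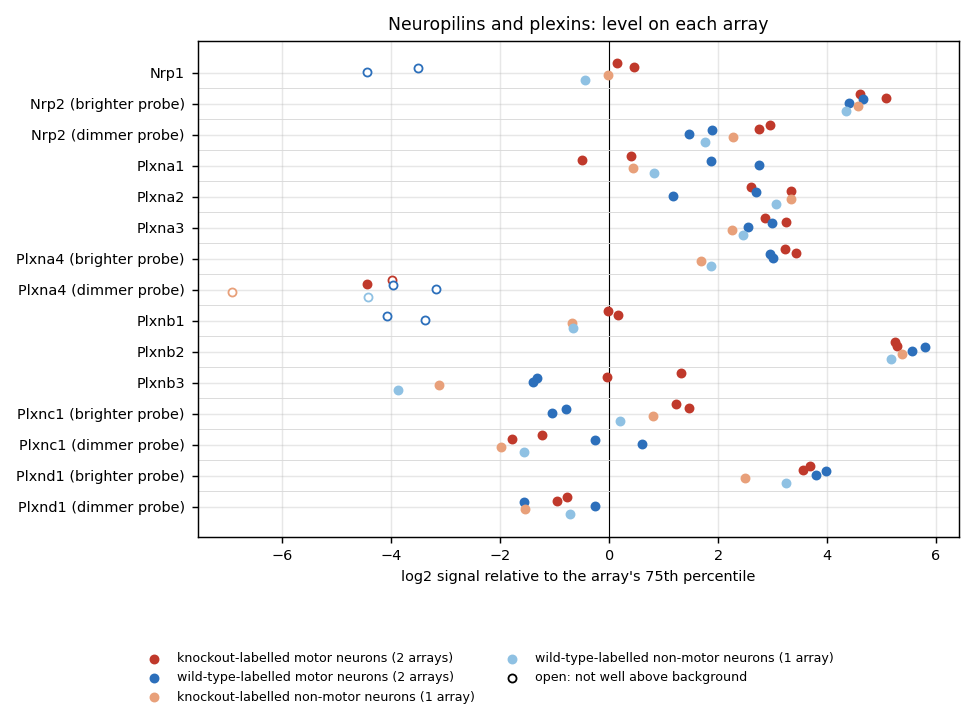
Level of each neuropilin and plexin probe on each of the 6 arrays, as log2 signal relative to the 75th percentile of the array (open circles were not well above background). The WT MN arrays are open and far to the left for Nrp1 and Plxnb1, and to the right of the KO MN arrays for Plxna1. Probes differ in binding strength, so rows are read across arrays only.

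Among the 20 semaphorin genes, Sema4f was the only one called between the MN groups. Sema4f, a membrane-bound class 4 member found at synapses, had log2 levels of -0.77 and -0.48 in KO MN, -3.95 and -4.13 in WT MN, -1.43 in KO nonMN and -1.84 in WT nonMN. Its pattern was that of Nrp1 and Plxnb1, with only the WT MN arrays below background. It was at least 2.99-fold higher in KO MN (mean log2 level -0.62 in KO MN and -4.04 in WT MN, measured difference 3.42 ± 0.51, adjusted p = 0.00900). With normexp the log2 difference was 0.36, below that bound, and did not pass (adjusted p = 0.696). Signal above background on 4 arrays and on neither WT MN array was shown by these 3 members (7.89%), by 6.4% of all probes and by 8.22% of named probes. Likewise, 40.1% of all probes called higher in KO MN were below background on both WT MN arrays.

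None of the 9 probes of class 3, the secreted ligands, passed between KO MN and WT MN. Sema3a was read by 2 probes, with log2 levels of 0.82 and 0.98 in KO MN, 0.67 and -0.70 in WT MN, 1.56 in KO nonMN and 1.04 in WT nonMN on the brighter one, and -2.11 and -2.12 in KO MN, -0.57 and -0.67 in WT MN, -1.09 in KO nonMN and -0.22 in WT nonMN on the dimmer one. WT MN replicate 2 was lowest on the brighter probe, whereas both KO MN arrays were lowest on the dimmer one. The differences were 0.92 ± 0.60 and -1.5 ± 0.51 (adjusted p = 0.273 and 0.0561), again of opposite sign. Sema3c, a ligand for both neuropilins and for Plxnd1, had 2.33 and 2.54 in KO MN, 1.91 and 0.54 in WT MN, 2.41 in KO nonMN and 1.94 in WT nonMN on its brighter probe and -0.54 and -1.29 in KO MN, -1.57 and -1.72 in WT MN, -1.19 in KO nonMN and -0.60 in WT nonMN on its dimmer one. KO MN lay above WT MN on both, by 1.21 ± 0.60 and 0.73 ± 0.53, and neither passed. Sema3e, the ligand of Plxnd1, had -4.65 and -3.15 in KO MN, -2.32 and -3.18 in WT MN, -2.52 in KO nonMN and -2.62 in WT nonMN. KO MN replicate 1 and both WT MN arrays were below background, so no direction can be read from its difference of -1.15 ± 0.65. Sema3f had 3.56 and 3.94 in KO MN, 5.03 and 5.08 in WT MN, 4.40 in KO nonMN and 4.75 in WT nonMN. Both KO MN arrays were the lowest of the 6 and both WT MN arrays the highest, and the difference of -1.31 ± 0.51 did not pass (adjusted p = 0.0868). The remaining class 3 probes gave 0.77 (Sema3b), -0.54 (Sema3d) and -1.16 (Sema3g, below background on WT MN replicate 1 and in WT nonMN), and none of them passed.

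Besides Sema4f, none of the membrane-bound semaphorins passed between the MN groups in the fit over 33264 probes. Sema4d, the ligand of Plxnb1, had log2 levels of 0.51 and 0.98 in KO MN, -0.19 and -1.32 in WT MN, -0.39 in KO nonMN and -0.69 in WT nonMN. KO MN lay above all other arrays, by 1.5 ± 0.58 over WT MN (adjusted p = 0.0842). It passed when the fit was limited to probes above background on all 6 arrays (adjusted p = 0.0374), and without WT MN replicate 1 (2.06, adjusted p = 0.0258). Sema5a, a ligand of Plxnb3 that can both attract and repel axons, had 2.26 and 2.81 in KO MN, 2.77 and 0.45 in WT MN, 3.82 in KO nonMN and 3.14 in WT nonMN. WT MN replicate 2 was far below the other 5 arrays, and the difference was 0.93 ± 0.75. That array decided the sign: without it the difference was -0.23, whereas without WT MN replicate 1 it was 2.09 and passed (adjusted p = 0.0260). Sema6a, a transmembrane ligand of Plxna2 and Plxna4, had 2.69 and 2.29 in KO MN, 2.81 and 2.60 in WT MN, 2.17 in KO nonMN and 1.88 in WT nonMN, with overlapping MN groups. Sema6d, a ligand of Plxna1, had 2.22 and 0.81 in KO MN, 2.27 and 1.96 in WT MN, 1.28 in KO nonMN and 1.59 in WT nonMN on its brighter probe and -2.95 and -2.94 in KO MN, -2.51 and -1.10 in WT MN, -3.72 in KO nonMN and -3.19 in WT nonMN on its dimmer one, which was below background on KO MN replicate 1 and WT MN replicate 1. Both MN groups overlapped on the brighter probe, and the differences were -0.60 ± 0.61 and -1.14 ± 0.60. Sema7a, a lipid-anchored ligand of Plxnc1 and integrins, had 2.20 and 2.54 in KO MN, 1.93 and 1.37 in WT MN, 0.48 in KO nonMN and 0.41 in WT nonMN. KO MN lay above WT MN, and WT MN above both nonMN arrays, while the genotype difference of 0.72 ± 0.53 did not pass (adjusted p = 0.328). Over the other class 4 genes (Sema4a, Sema4b, Sema4c and Sema4g) the difference ran from -0.25 to 0.67, and over Sema5b, Sema6b and Sema6c it ran from -1.42 (Sema6c) to 1.13 (Sema6b).

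**Figure D3:**
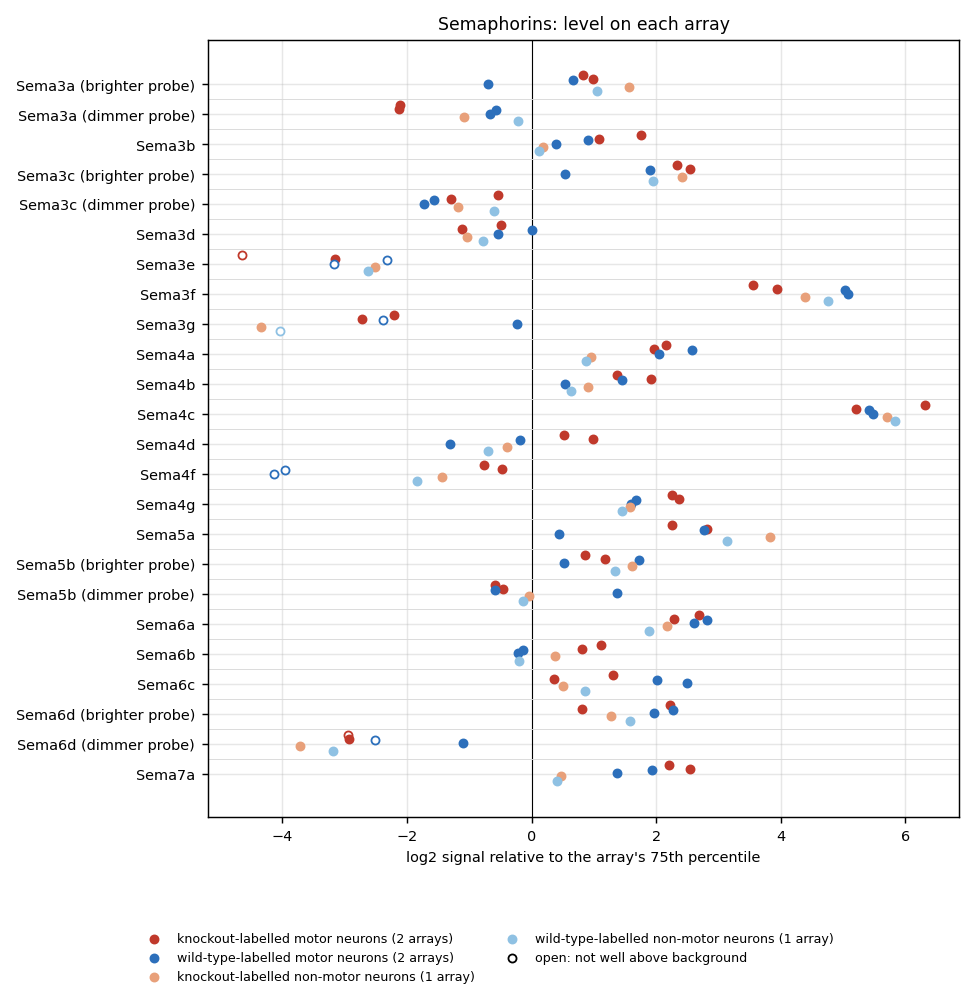
Level of each semaphorin probe on each of the 6 arrays, as log2 signal relative to the 75th percentile of the array (open circles were not well above background). Sema4f is open and far to the left in WT MN, Sema7a and Sema4a lie to the right in all 4 MN arrays, and the nonMN arrays of Sema5a lie to the right of all MN arrays.

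Probes of the same gene were set against each other for the 7 member genes with 2 tested probes. In KO MN against WT MN the log2 differences had the same sign for 4 of 7 (Nrp2, Sema3c, Sema5b and Sema6d), and opposite signs for Plxnc1, Plxnd1 and Sema3a. In MN against nonMN they had the same sign for 5 of 7, all but Plxnc1 and Sema5b. For Plxnc1 the probes' levels over the 6 arrays ran against each other (r = -0.86, given as a description over arrays of 4 groups). Nrp1, Plxnb1, Sema4f, Plxnb3 and Plxna1 had 1 matched probe each, so their calls have no second reading here. A further probe of these genes could stand among the 29381 probes whose accession matched no gene, which were not used as members.

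**Figure D4:**
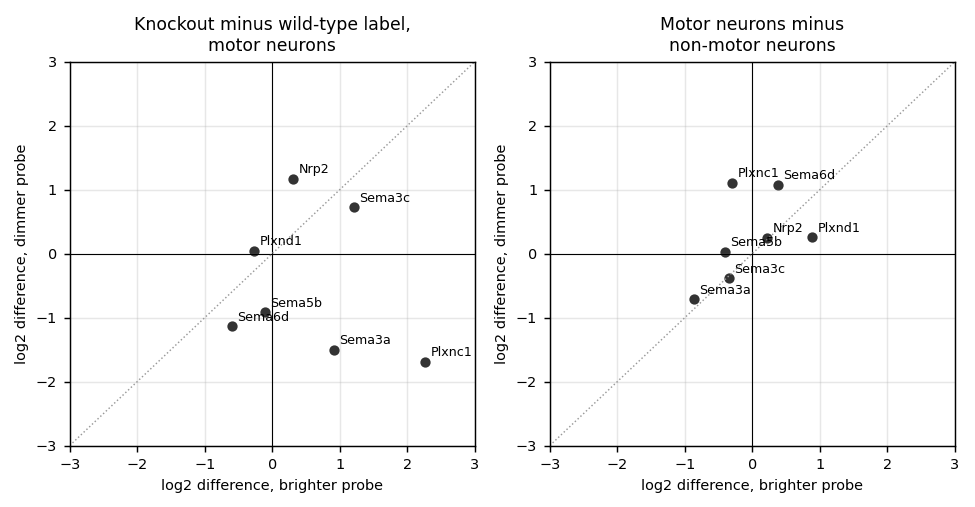
Log2 difference of the dimmer probe (vertical axis) against that of the brighter probe (horizontal axis) for the 7 genes with 2 tested probes, for KO MN minus WT MN (left) and MN minus nonMN (right). The dotted line marks equal values. On the left, Plxnc1 (2.27 and -1.69) and Sema3a (0.92 and -1.5) lie far below the line, and on the right Plxnc1 (-0.29 and 1.11) lies farthest from it.

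Between the single KO nonMN and WT nonMN arrays, no member differed over 2-fold. Of 37 members above background on both, 22 were higher and 15 lower in KO nonMN, against 46.7% higher over all such probes and 55.9% over the named ones, with a median log2 difference of 0.1 and a range from -0.87 (the dimmer Sema3a probe) to 0.75 (Plxnb3). Over all such probes, 1.61% were over 2-fold higher and 5.22% over 2-fold lower. There is no replicate of either group, so these differences carry no test. Nrp1, Plxnb1 and Sema4f differed by 0.42, -0.03 and 0.40 there. Whether the genotype difference was unequal in the 2 fractions was tested as an interaction, and 0 of 33264 probes passed (limma, 0.0% of all probes, 2807 at an unadjusted p under 0.05). That test takes its spread from the MN arrays alone and assumes that the single nonMN arrays vary like them. Among members, 3 had an unadjusted p under 0.05: Nrp1 (3.86 ± 0.96), Plxnb1 (3.83 ± 0.92) and Sema4f (3.02 ± 0.89), each with an adjusted p of 0.528. All 3 were above 0, as were 4.59% of all probes at that level, while 3.84% of all probes and none of the members were below 0 at it. Over named probes these shares were 6.13% and 1.79%. Whatever their p, 23 of 38 members, 45.6% of all probes and 57.2% of named probes were above 0.

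Setting MN against nonMN arrays asks which of these guidance genes differ between GFP-on and GFP-off cells. Plxnb3 was the only member called, higher in MN by 3.14 ± 0.55 on the log2 scale (mean level -0.36 ± 1.28 in MN and -3.50 ± 0.53 in nonMN, SD, n = 4 against 2, adjusted p = 0.0388, limma). In all, 0.854% of the probes passed, 0.649% higher and 0.204% lower. The difference of Plxnb3 was 3.77 within the KO label and 2.51 within the WT label. On the WT MN arrays, the lowest signal called well above background had a mean log2 level of -2.20. The nonMN levels of Plxnb3 (-3.13 and -3.87) lay below that floor and were still above background on their own arrays. The part of this unequal floor in the difference was not tested. The call was lost without KO MN replicate 1, either WT MN array or either nonMN array (adjusted p = 0.0685 to 0.254), and the difference then ran from 2.51 to 3.77. It was also lost with quantile normalization (adjusted p = 0.157), with normexp (adjusted p = 0.0563) and with no filter (adjusted p = 0.16).

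Some members had no overlap between the fractions. All 4 MN arrays lay above both nonMN arrays for 11 of 38 members (28.9%), against 9.42% of all probes and 2054 of the 19602 named ones. They lay below both for 2 members (5.26%), against 14.8% of all and 16.8% of named probes. The 11 were Plxna3, the brighter probes of Plxna4 and Plxnd1, Plxnb3, Sema3b, Sema3g, Sema4a, Sema4g, Sema6a, the dimmer probe of Sema6d, and Sema7a. The 2 were Sema5a and the brighter probe of Sema3a. After Plxnb3, the members with the largest differences were Sema3g (2.31 ± 0.63, adjusted p = 0.107), Sema7a (1.57 ± 0.47, adjusted p = 0.132), the brighter probe of Plxna4 (1.38 ± 0.45, adjusted p = 0.155) and Sema4a (1.27 ± 0.45, adjusted p = 0.186), all short of the threshold. With Plxnb3 they made 5 members higher at an unadjusted p under 0.05 (8.99% of all probes), and no member was lower at that level (10.1%). For Sema3g, 2 of the 6 arrays were below background, so the size is approximate. The nonMN levels of Sema3g and of the dimmer Sema6d probe also lay below the WT MN floor given above. At the lower end stood Nrp1 (-1.60 ± 0.78), Sema5a (-1.41 ± 0.64) and Plxnb1 (-1.16 ± 0.76). The median member difference was 0.28, with 24 of 38 above 0, against -0.09 and 45.9% above 0 over all probes, and -0.21 and 39.9% over named probes. Within both labels taken separately, 18 of 38 members (47.4%) were higher in MN and 6 were lower, against 28.0% and 36.0% of all probes and 25.5% and 41.2% of named probes.

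**Figure D5:**
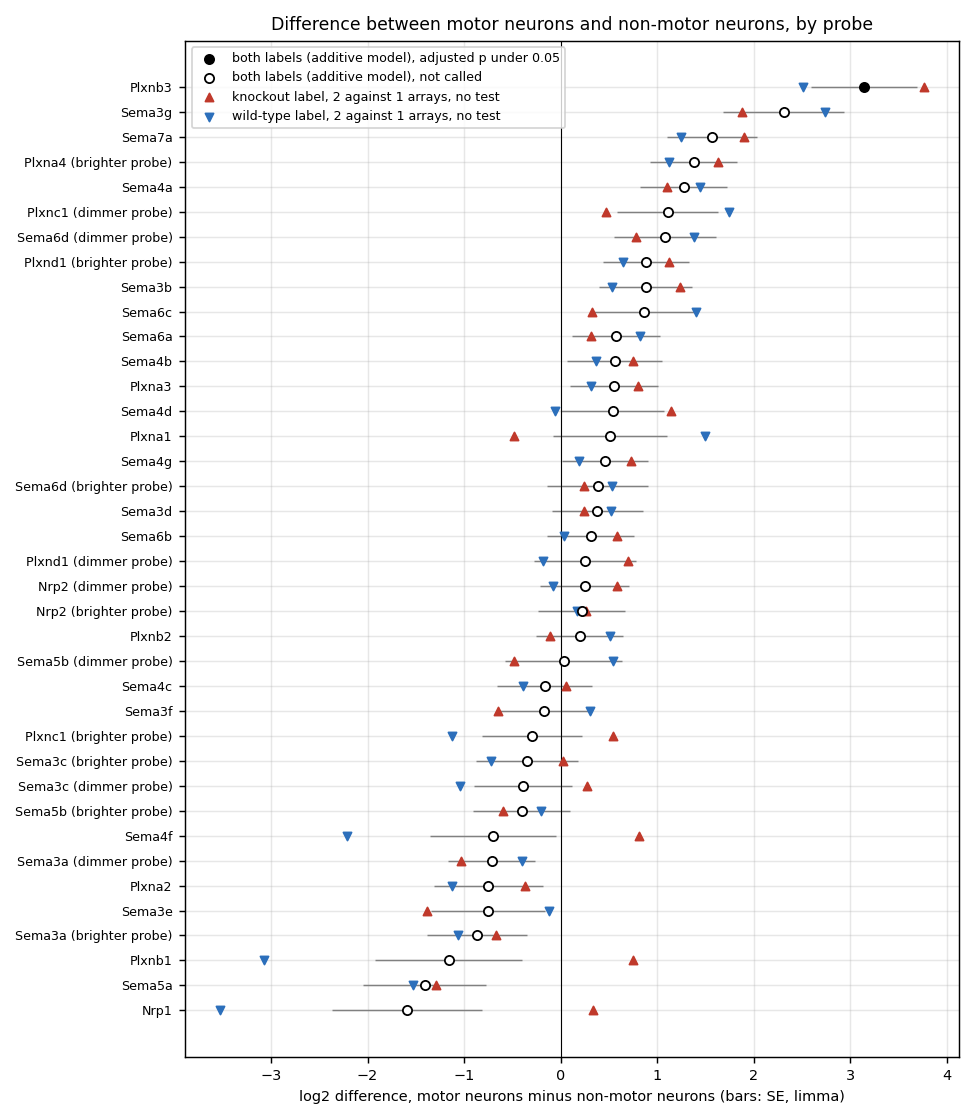
Log2 difference of MN minus nonMN for each of the 38 tested member probes, from the additive model over both labels (circles with SE, filled where the adjusted p was under 0.05) and within the KO and WT labels (upward and downward triangles, 2 against 1 arrays, no test). Plxnb3 at the top is the only filled circle at 3.14, and the triangles of Nrp1, Plxnb1 and Sema4f stand far apart, with the WT label at -3.53, -3.07 and -2.21.

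For Nrp1, Plxnb1 and Sema4f the difference between fractions had opposite signs in the 2 labels, and the test of that inequality is the interaction given above, which did not pass. Nrp1 was 0.33 higher in KO MN than in KO nonMN and gave -3.53 in WT MN against WT nonMN. Plxnb1 gave 0.75 and -3.07, and Sema4f gave 0.81 and -2.21 in the KO and WT labels. Without the KO nonMN array, Nrp1 and Plxnb1 were called lower in MN (-3.53 and -3.07, adjusted p = 0.0395 and 0.0454), a comparison in which the WT MN arrays meet the WT nonMN array alone. Other cell markers moved with the fraction: 4 of 6 measured erythroid genes were lower in MN, and 2 of 6 sensory and neural crest genes and 1 of 8 interneuron genes were higher. The summed log2 level of the sensory and neural crest markers was 5.12 to 6.03 over the MN arrays and 2.76 to 2.96 over the nonMN arrays. That of the erythroid markers was 5.33 to 7.84 in MN and 9.08 to 9.30 in nonMN. The part of these cells in the member differences was not tested.

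Over all 38 tested probes, the highest group mean was in KO MN for 16, in WT MN for 13, in KO nonMN for 5 and in WT nonMN for 4. Replicates of the WT MN group were farther apart than those of KO MN. The median gap between the 2 KO MN arrays was 0.36 log2 units, with 4 members over 1 unit, and between the 2 WT MN arrays 0.52, with 10 members over 1 unit.

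Genes that work with this system outside the 3 families were listed by role. Of 16 tested coreceptor and adhesion partner genes (22 probes), 2 were higher and 2 lower in KO MN, with a median log2 difference of -0.31. At 9.09% of the probes in each direction, the higher calls lay below the shares over all probes (10.6%) and over named probes (14.6%), and the lower calls lay near that over named probes (7.44%). Those higher were Tyrobp, an adaptor that pairs with Trem2 in a complex with Plxna1 and also a microglia marker here (at least 12.2-fold, adjusted p = 0.00850), and the adhesion gene Cntn2 (2.60 ± 0.72, with WT MN replicate 1 below background). Those lower were the integrin gene Itga1 (-3.70 ± 0.77) and Met, the growth factor receptor that associates with class B plexins (-1.77 ± 0.53). Of 36 effector genes (54 probes), 5 were higher and 4 lower, with a median of 0.14. That was 9.26% of the probes in each direction, again near or below those background shares. The GTPase genes Rac1 (4.03 ± 0.61) and Rhoa (2.43 ± 0.52) were higher, and Farp1, a GTPase exchange factor related to the plexin partner Farp2 (-2.52 ± 0.55), and Sh3bp1, a Rac-inactivating protein (-2.23 and -2.18 on its 2 probes), were lower. For Tyrobp, the log2 level was 1.40 and 1.63 in KO MN, -2.79 and -2.10 in WT MN, 1.52 in KO nonMN and 0.55 in WT nonMN, so that the WT MN arrays alone were low. For Rac1, the log2 level was 4.47 and 4.33 in KO MN, 1.1 and -0.35 in WT MN, 4.46 in KO nonMN and 4.01 in WT nonMN, again with only the WT MN arrays low. In MN against nonMN, none of the genes of either list passed (limma), with medians of 0.13 and 0.16.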

How the data were processed

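Cy3-labelled RNA of the sorted cells was read on 6 1-colour Agilent mouse arrays of 1 slide, in 1 scan. Per the file headers, Feature Extraction 10.5.1.1 measured the spots, whereas version 9.1 is named in the submitters' processing notes. The deposited processed signal of each spot is an intensity, background-subtracted and detrended within the array by that software, with no scaling between arrays. The deposited files also hold flags of other kinds for spots above background, saturated or irregular, and no spot was saturated. The authors' value table is in log2 and equals the log2 processed signal minus the 75th percentile over probes within 0.01 for over 99% of probes.

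A probe's level here is the mean log2 processed signal of its unflagged spots minus that percentile of its array. A percentile over all spots was used first, and the one over probes was adopted because the authors' table has it, after the calls under both had been seen. Gene names came from matching each probe's RefSeq accession to RefSeq's genes of GRCm38.p6, and from no other source: 26300 of 55681 probes matched, and the headers name another build, so positions are given only for RefSeq's own sequences. Tests ran per probe over 33264 probes above background on at least 2 arrays (lmFit and eBayes of limma 3.58.1, R 4.3.3, Benjamini-Hochberg adjustment). Means of the 4 groups were fitted for the genotype comparison and the interaction (2 residual degrees of freedom), and genotype label plus fraction for the comparison of fractions (3). For 1 probe, an exact permutation test of 2 against 2 arrays cannot go below p = 0.333, so calls rest on the spread shared across probes. Where a group was below background on all its arrays, the fold was taken against the lowest signal called well above background, or the probe's own signal if higher, and is a lower bound on the ratio of means. Tables were made with Python 3.11.15, and the fits were tested on simulated data.

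Members, pathway lists and marker lists were chosen with earlier results of these data known. The values of all 6 arrays were given for every member probe past the threshold and for every probe above background of Nrp1, Nrp2, Plxna1 to Plxna4, Plxnb1, Plxnb2, Plxnc1, Plxnd1, Sema3a, Sema3c, Sema3e, Sema3f, Sema4d, Sema5a, Sema6a, Sema6d and Sema7a. Up to 4 pathway genes per list with the largest change past the threshold were named, with Mir17hg as the check of the locus. Rac1 and Tyrobp were shown by array after their values were seen. Alternatives covered scaling, background correction, the filter, the probe per gene, blocks, models and each array left out. Same-numbered MN arrays did not deviate together (correlation -0.096 over 33264 probes).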

Additional observations from a re-analysis of the deposited data

How the results depend on the processing

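Of the 38 member probes, 6 were called between KO MN and WT MN (5 higher, 1 lower). With normexp background correction, with no filter on dim probes and in the additive model over all 6 arrays, 0 were called (limma, with 3, 8 and 10 at an unadjusted p under 0.05). Leaving out 1 array gave 3 (without KO MN replicate 2, all 3 higher) to 14 (without WT MN replicate 1, 9 higher and 5 lower). That last fit added Plxna2, Sema4d, Sema5a and the brighter probes of Sema3a and Sema3c as higher, and Sema3g and the dimmer probes of Plxnc1, Sema5b and Sema6d as lower (adjusted p = 0.0209 to 0.0492). The Sema5b probe was at 0.06, against -0.92 with all arrays, without WT MN replicate 2. A percentile over spots, chosen after seeing the data, gave 7 (4 higher, 3 lower), and probes above background on all arrays gave 7 (3 higher, 4 lower). The dimmer probes of Plxnc1 and Sema3a were added by both as lower, and Sema4d (higher) and Sema6c (-1.42, adjusted p = 0.0434) by the filter alone. In the comparison of fractions, 1 was called, and 0 with quantile normalization, with normexp and with no filter (limma, with 5, 6 and 6 at an unadjusted p under 0.05). Leaving out 1 array gave 0 to 2: Plxnb3 and Sema3g (2.48, adjusted p = 0.0484) without KO MN replicate 2, and Nrp1 and Plxnb1, both lower, without KO nonMN. The interaction called 0 members under each of its alternatives. The cause of these changes was not tested.

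Nrp1, Plxnb1 and Sema4f stayed called in 10 of 13 alternatives each, Plxnc1 in 9 of 14, Plxna1 in 8 of 14, Plxnb3 in 5 of 14 for the genotype label and in 8 of 16 for the fractions, with the same sign throughout. These alternatives reuse the same 6 arrays, so an unchanged sign is not separate evidence. Between fractions, normexp also moved the median difference of all probes from -0.09 to 0.36. The size of the members' differences depended on the background correction: with normexp the genotype differences of Nrp1, Plxnb1, Sema4f, Plxnb3 and Plxna1 were 1.11, 0.89, 0.36, 0.88 and -1.69. The offset of 50 used with normexp shrinks log2 differences of dim probes, so part of that drop was fixed in advance. Quantile normalization ended the genotype calls of Plxna1 and Plxnb3 (adjusted p = 0.0673 and 0.0782), and the percentile over spots that of Plxnb3 (0.0549). Their adjusted p over all alternatives ran from 2.3e-07 to 0.254 for Nrp1, from 6.05e-06 to 0.319 for Plxnb1, from 5.13e-05 to 0.696 for Sema4f, from 0.00324 to 0.221 for Plxnc1, from 0.00377 to 0.192 for Plxna1, and from 0.00983 to 0.324 (genotype) and 0.00655 to 0.254 (fractions) for Plxnb3. Over all probes, the 8257 genotype calls fell to 1970 with quantile normalization, to 1330 with normexp and to 0 with no filter or in the additive model (limma, with 11502 and 11192 at an unadjusted p under 0.05), and the share of calls that were higher was 42.7%, 68.5% with 1 probe per gene and 57.6% without WT MN replicate 2. The 284 calls between fractions ranged from 0 to 1802 when 1 array was left out. With the replicate number as a block, 6 members were called (5 higher, 1 lower). With the tag that the descriptions share between fractions as a block, 1 was called. Neither block changed a call among the members, and other pairings of the arrays were not tested. Dim signal limits Nrp1, Plxnb1, Sema4f, Sema3e, Sema3g and the dimmer probes of Sema6d and Plxna4, each below background on at least 2 arrays.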
